A study of Ovis aries with 12 samples.

Results

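The 2 gene IDs described here, ENSOARG00000000002 and ENSOARG00000000004, are the IDs at positions 2 and 4 when the 25197 sheep gene IDs of the count table are sorted by number. They belong to the first 37 IDs of the list, called the block below, as many as there are mitochondrial genes in RefSeq. They were taken as the small (12S) and large (16S) mitochondrial ribosomal RNAs because their positions match the order of genes along the mitochondrial genome. That identity is inferred from order alone: the deposited table gives no gene names, and the RefSeq sheep gene table used here (assembly ARS-UI_Ramb_v3.0) paired a name with 0 of its IDs. The IDs are therefore used as names throughout.

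Poly-A RNA was sequenced from anterior mitral leaflets of adult Dorset sheep, giving 12 libraries (the series text counts 13 animals, but its groups add up to 12). Myocardial infarction (MI) was induced by permanent ligation of obtuse marginal branches of the circumflex artery under anaesthesia with thiopental and isoflurane, and some animals developed low-grade ischemic mitral regurgitation (IMR), in which blood flows back into the left atrium, assessed by echocardiography. The groups were pre-MI (n = 3, no IMR), 4 weeks after MI without IMR (n = 2) and with IMR (n = 3), and 8 weeks after MI without IMR (n = 2) and with IMR (n = 2). The labels name no engineered allele, all leaflets were flash-frozen, and no label names a sham operation or sequencing batch. RNA was selected with poly-T beads from whole leaflet tissue, so a lower level may reflect fewer cells of a type or less RNA per cell, which cannot be told apart. The cell types of the leaflet could not be checked against marker genes, because the IDs carry no names.

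Animal mitochondria keep a small circular genome that encodes a few subunits of the respiratory chain, a set of transfer RNAs and the RNA core of the mitochondrial ribosome. Most of one strand is copied as a long precursor, which is cut at the transfer RNAs, so the ribosomal RNAs and the messenger RNAs share their transcription but not their later stability. The small ribosomal RNA forms the core of the subunit that reads the message, and the large one forms the core of the subunit that joins amino acids. Mitochondrial messenger RNAs of mammals mostly end in A tails, whereas their ribosomal RNAs carry at most very short ones, so libraries made from poly-A RNA capture ribosomal RNAs of mitochondria only incompletely.

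The order of the block was set against the 37 mitochondrial genes of the RefSeq table (2 rRNA, 22 tRNA and 13 protein-coding genes), sorted by start. Positions 2 and 4 are the rRNA positions in that order. Of the 15 positions of rRNA and protein-coding genes, 14 had counts in all 12 libraries, both gene IDs described here among them. The ID at position 27 had 1 count in 1 library. Of the 22 tRNA positions, 21 were at 0 in all libraries, where a count of 0 allows up to 3 counts, or 0.156 to 0.386 CPM (counts scaled to a common library total). The ID at position 37 did not follow the pattern, with 99 to 13901 counts. A match of this kind describes the order and identifies no gene.

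Library totals ran from 7768007 counts (4 weeks without IMR, replicate 5) to 19175100 counts (8 weeks with IMR, replicate 2). Across all libraries ENSOARG00000000002 had 27788 counts and ENSOARG00000000004 had 146681. Together they held 3.31% of the counts of the block. Both passed the filter on low counts, which left 14804 genes. Levels are given as CPM after scaling of library sizes by TMM factors (a trimmed mean of ratios between libraries), and shares are percentages of the unscaled counts. A per-length comparison of the 2 IDs was not made, since no length is paired with them, so the size of their ratio says nothing of molar amounts and only its differences between libraries are described.

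ENSOARG00000000002, at the position of the small ribosomal RNA, had overlapping levels in all 5 groups. In pre-MI leaflets it had 414, 60.6 and 32.0 CPM in replicates 2, 3 and 4. At 4 weeks without IMR it had 120 CPM in replicate 1 and 327 CPM in replicate 5. The pre-MI values enclose both of these.

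At 4 weeks with IMR, ENSOARG00000000002 had 131, 125 and 106 CPM in replicates 2, 3 and 4. At 8 weeks it had 44.3 and 400.3 CPM without IMR (replicates 3 and 4), and 302 and 89.9 CPM with IMR (replicates 1 and 2). The 4-week libraries with IMR were close together, while each 8-week group held a high and a low library.

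The group means of ENSOARG00000000002 were 223 ± 146 CPM at 4 weeks without IMR (SD, n = 2), 222 ± 252 CPM at 8 weeks without IMR (SD, n = 2) and 196 ± 150 CPM at 8 weeks with IMR (SD, n = 2). They were 169 ± 213 CPM pre-MI (SD, n = 3) and 121 ± 13.0 CPM at 4 weeks with IMR (SD, n = 3). In this order of means, the ranges of each pair of neighbouring groups overlapped, so no neighbours differed beyond their spread. The highest library had 12.9 times the level of the lowest, and both were pre-MI.

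ENSOARG00000000004, at the position of the large ribosomal RNA, was high and low in nearly the same libraries. In pre-MI leaflets it had 1315 CPM in replicate 2, 538 CPM in replicate 3 and 230 CPM in replicate 4. At 4 weeks without IMR it had 527 CPM in replicate 1 and 1240.0 CPM in replicate 5. Replicate 2 pre-MI and replicate 5 at 4 weeks were again the highest of their groups.

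At 4 weeks with IMR, ENSOARG00000000004 had 822, 638 and 686 CPM in replicates 2, 3 and 4. At 8 weeks it had 310 and 2344 CPM without IMR (replicates 3 and 4) and 1501 and 747 CPM with IMR (replicates 1 and 2). The highest library of all, 8 weeks without IMR replicate 4, shared its group with the second lowest.

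For ENSOARG00000000004 the group means were 1327 ± 1438 CPM at 8 weeks without IMR (SD, n = 2), 1124 ± 533 CPM at 8 weeks with IMR (SD, n = 2) and 884 ± 504 CPM at 4 weeks without IMR (SD, n = 2). They were 715 ± 95.7 CPM at 4 weeks with IMR (SD, n = 3) and 695 ± 559 CPM pre-MI (SD, n = 3). Neighbouring groups in this order also overlapped in range. The span from the lowest to the highest library was 10.2-fold.

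**Figure D1:**
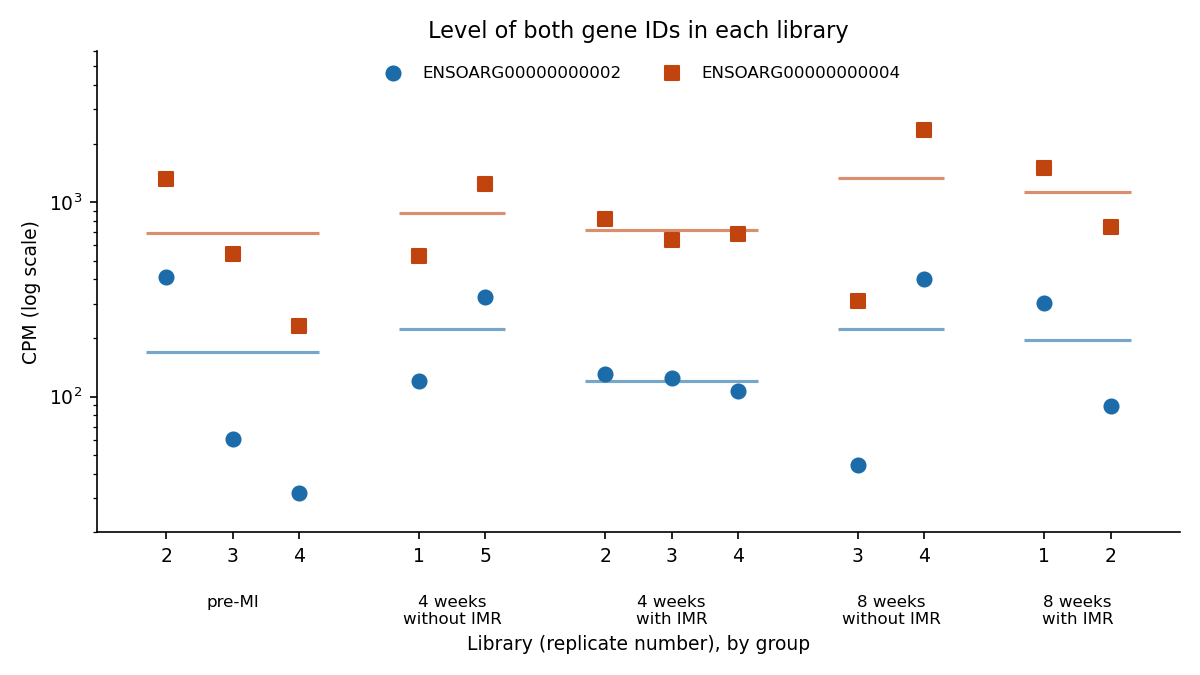
Level of ENSOARG00000000002 (circles) and ENSOARG00000000004 (squares) in CPM on a log scale, in each of the 12 libraries by group, with the replicate number on the axis and horizontal lines at the group means. Both IDs are high in pre-MI replicate 2, 4-week replicate 5 without IMR, 8-week replicate 4 without IMR and 8-week replicate 1 with IMR, and the groups overlap.

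Neither ID passed a test of time after MI. In edgeR's quasi-likelihood test, fitted to 14804 genes in 12 libraries, ENSOARG00000000002 differed between 4 weeks and pre-MI by a log2 fold change of -0.04 (SE 0.89, adjusted p = 0.998). ENSOARG00000000004 differed by 0.19 in the edgeR fit (SE 0.67, adjusted p = 0.985). In this contrast 0% of all genes passed an adjusted p of 0.05, 4.74% had an unadjusted p under 0.05, and the CPM ranges of the arms did not overlap for 4.34%. The ranges overlapped for both IDs.

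Between 8 weeks and pre-MI, ENSOARG00000000002 differed by 0.31 (SE 0.93, edgeR adjusted p = 0.99992) and ENSOARG00000000004 by 0.81 (SE 0.71, edgeR adjusted p = 0.99992). Both contrasts with pre-MI use the same 3 libraries. Over all genes 0% passed, 1.93% had an unadjusted p under 0.05 and 3.59% had arms that did not overlap, again with neither ID among them. Between 8 and 4 weeks, ENSOARG00000000002 differed by 0.35 (SE 0.82, edgeR adjusted p = 0.949) and ENSOARG00000000004 by 0.62 (SE 0.61, edgeR adjusted p = 0.837), against a background of 0% passing, 7.2% at an unadjusted p under 0.05 and 2.04% with arms apart.

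Regurgitation was set against its absence at the same time, so both arms had an infarct and the same time after it. The size of the infarct is not among the labels used here and was not held fixed. At 4 weeks, ENSOARG00000000002 differed by -0.89 with IMR (SE 1.09, edgeR adjusted p = 0.804) and ENSOARG00000000004 by -0.30 (SE 0.82, edgeR adjusted p = 0.914). The arms overlapped for both IDs, where 0% of genes passed, 7.42% had an unadjusted p under 0.05 and 21.4% had arms apart. At 8 weeks the differences were -0.18 (SE 1.21, edgeR adjusted p = 1) and -0.24 (SE 0.91, edgeR adjusted p = 1), with 0%, 2.39% and 25.5% of genes in the same order of measures.

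Averaged over both times, ENSOARG00000000002 differed with IMR by -0.53 (SE 0.82, edgeR adjusted p = 0.910) and ENSOARG00000000004 by -0.27 (SE 0.61, edgeR adjusted p = 0.943). The background was 0% passing, 5.17% at an unadjusted p under 0.05 and 2.03% with arms apart. The interaction of IMR with time (its effect at 8 minus that at 4 weeks) was 0.70 (SE 1.63, edgeR adjusted p = 0.966) for ENSOARG00000000002 and 0.07 (SE 1.23, edgeR adjusted p = 0.998) for ENSOARG00000000004, with 0% of genes passing and 3.35% at an unadjusted p under 0.05. Of the 14 tests of both IDs, 0 reached an unadjusted p under 0.05, and the standard errors of 0.61 to 1.63 on the log2 scale limit what these tests could detect. The sign of several differences rested on single libraries: without pre-MI replicate 2 the difference of ENSOARG00000000002 between 4 weeks and pre-MI was 1.83, without 4 weeks without IMR replicate 5 its difference for IMR at 4 weeks was 0.010, and without 8 weeks without IMR replicate 4 its difference for IMR at 8 weeks was 2.09.

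The other 35 IDs of the block give the context. Of these, 13 passed the filter on low counts and 0 passed the edgeR test in either direction in any of the 7 contrasts. Between 4 weeks and pre-MI all 13 had fold changes below 0. Their median was -0.95 on the log2 scale (range -2.82 to -0.76), against 0.00149 over all genes. Of the 13, 1 had an unadjusted edgeR p under 0.05, against 4.74% of all genes. Between 8 and 4 weeks all 13 had fold changes above 0, with a median of 1.73 (range 0.88 to 3.30) against 0.01 over all genes. Of the 13, 11 had an unadjusted edgeR p under 0.05, against 7.2% of all genes. The 13 were measured in the same libraries, so these counts are not of independent results. The values of ENSOARG00000000002 and ENSOARG00000000004 lay outside the range of these 13 in both contrasts in the edgeR fit, nearer to 0, and this difference itself is described and not tested.

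**Figure D2:**
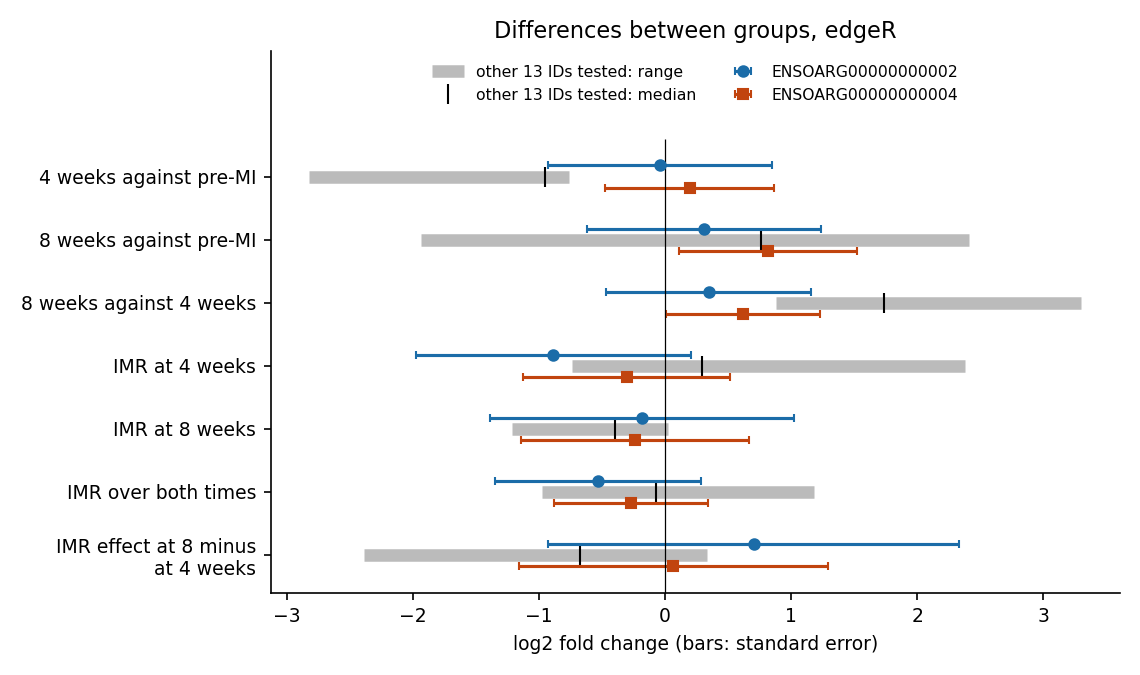
Log2 fold changes of ENSOARG00000000002 (circles) and ENSOARG00000000004 (squares) with their standard errors in the 7 contrasts, beside the range (grey bar) and median (tick) of the 13 other tested IDs of the block. At 4 weeks against pre-MI and at 8 weeks against 4 weeks both IDs sit nearer to 0 than all 13 others, and no value passed the test.

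The share of library counts in the block ranged widely within groups, from 0.928% to 5.97% pre-MI and from 0.954% to 11.3% at 8 weeks without IMR. It was 0.957% and 1.88% at 4 weeks without IMR, 1.22% to 1.84% at 4 weeks with IMR, and 2.04% and 7.14% at 8 weeks with IMR. Pre-MI replicate 2, 8 weeks without IMR replicate 4 and 8 weeks with IMR replicate 1 stood apart above 5%, and the other 9 libraries were at or below 2.38%.

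The part of the block taken by ENSOARG00000000002 and ENSOARG00000000004 together had its highest mean at 4 weeks, and overlapped between 4 and 8 weeks. It was 2.82%, 2.89% and 3.35% of the block in pre-MI replicates 2, 3 and 4, and 4.85% and 9.59% at 4 weeks without IMR (replicates 1 and 5). The part was 6.96%, 4.03% and 5.07% at 4 weeks with IMR (replicates 2, 3 and 4). At 8 weeks it was 3.64% and 2.23% without IMR (replicates 3 and 4) and 2.53% and 4.55% with IMR (replicates 1 and 2).

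Means were 3.02 ± 0.286% pre-MI (SD, n = 3), 6.10 ± 2.23% over both groups at 4 weeks (SD, n = 5) and 3.24 ± 1.07% over both groups at 8 weeks (SD, n = 4). The 4-week libraries all lay above the pre-MI libraries. Taken singly, ENSOARG00000000004 separated in this way (at most 2.94% pre-MI, at least 3.37% at 4 weeks). ENSOARG00000000002 overlapped, at 0.674% in pre-MI replicate 2 and 0.661% in 4 weeks with IMR replicate 3. The 3 libraries with the largest blocks had the 3 lowest shares of both IDs together. This part is relative to the block, which held a mean of 1.51% of library counts at 4 weeks and 3.09% pre-MI. In CPM, both IDs overlapped between 4 weeks and pre-MI. For each of the 13 other IDs with counts in all libraries, taken singly, the part of the block overlapped between 4 weeks and pre-MI. Sums of other pairs of IDs were not compared.

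Each ID was also set against the sum of the other 35, in tests added after these shares had been seen. The log2 ratio of ENSOARG00000000002 to that sum was higher by 1.18 at 4 weeks (mean -6.63) than pre-MI (mean -7.81), with an exact permutation p of 0.0536 (two-sided, 56 arrangements) and 0.107 after adjustment over the 8 tests. At 8 weeks (mean -7.85) it was lower than at 4 weeks by 1.23, with no overlap between the arms (exact permutation p = 0.0159, adjusted p = 0.107, 126 arrangements). How many of all genes have arms apart in such a ratio was not computed, so this separation has no background to be read against. In CPM the same arms overlapped for this ID.

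For ENSOARG00000000004 the log2 ratio was higher by 0.98 at 4 weeks (mean -4.28) than pre-MI (mean -5.25), without overlap (exact permutation p = 0.0357, adjusted p = 0.107). For this separation, too, no share over all genes was computed, and in CPM the arms overlapped. At 8 weeks (mean -5.17) it was lower than at 4 weeks by 0.89, with overlapping arms (exact permutation p = 0.0476, adjusted p = 0.107). Comparisons of 8 weeks with pre-MI and of IMR within time had adjusted p of 0.827 to 0.943 for these ratios by exact permutation. The smallest exact permutation p that the 8 tests allow is 0.00794 to 0.0286, which leaves little room to pass an adjustment over 8. Leaving 1 library out of a compared arm leaves fewer arrangements, which raises this smallest p and leaves less room still. None of the 8 passed the adjustment, and leaving out any 1 library gave none that passed (lowest adjusted p 0.0952 by exact permutation).

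**Figure D3:**
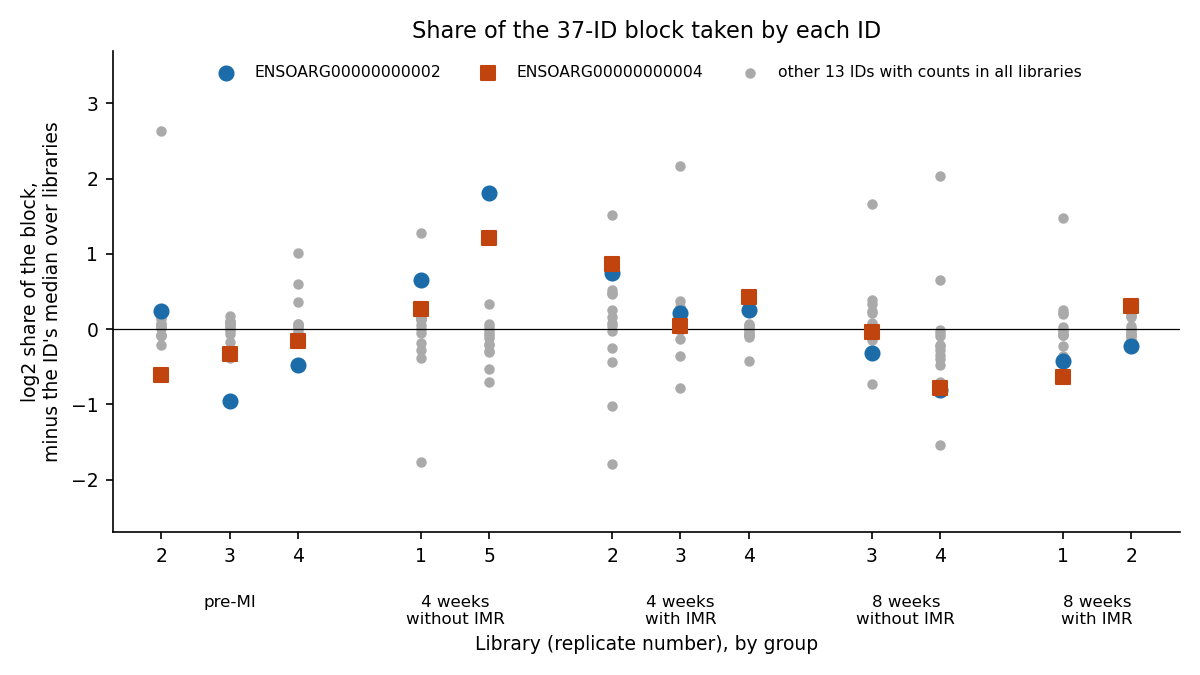
Share of the block taken by each ID in each library, as log2 of the share minus that ID's own median over the 12 libraries, for ENSOARG00000000002 (circles), ENSOARG00000000004 (squares) and the other 13 IDs with counts in all libraries (grey). In 4-week replicate 5 without IMR both IDs lie above all 13 others, at 1.81 and 1.21.

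Within the block, both IDs were among those whose share varied most between libraries. The SD over 12 libraries of the log2 share of the block was 0.77 for ENSOARG00000000002 and 0.61 for ENSOARG00000000004, and 11 of the 13 other IDs with counts in all libraries had a lower SD than either (median 0.22, range 0.11 to 1.41). The 2 with a higher SD were the IDs at positions 21 and 37, singled out after their values were seen. Position 21 went down to 5 counts in a library, so counting error adds to its spread.

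The library with the largest share of both IDs was 4 weeks without IMR replicate 5. There ENSOARG00000000002 took 2.00% of the block and ENSOARG00000000004 took 7.59%, 1.81 and 1.21 above their medians on the log2 scale. The other 13 IDs lay between -0.70 and 0.33 in that library. It was also the library with the fewest counts, and the part of depth in this result was not tested.

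ENSOARG00000000004 was counted several times as often as ENSOARG00000000002 in every library, at a ratio that differed between libraries. Pre-MI, the ratio was 3.18 in replicate 2 (95% Wilson interval 3.09 to 3.27), 8.88 in replicate 3 (8.38 to 9.42) and 7.19 in replicate 4 (6.53 to 7.92). At 4 weeks without IMR it was 4.40 in replicate 1 (4.12 to 4.70) and 3.80 in replicate 5 (3.64 to 3.95). The pre-MI leaflets alone spanned the whole range of the series, which was 2.79-fold.

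At 4 weeks with IMR the ratio was 6.27, 5.10 and 6.46 in replicates 2, 3 and 4. At 8 weeks it was 6.99 and 5.85 without IMR (replicates 3 and 4) and 4.98 and 8.31 with IMR (replicates 1 and 2). The intervals hold for counting error alone, as copies of 1 molecule cannot be recognised here, and in each of the 5 groups at least 1 pair of libraries had intervals that did not overlap.

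The ratio spread widely in the pre-MI group and at 8 weeks with IMR, and less in the other 3 groups. Its mean was 6.42 ± 2.93 pre-MI (SD, n = 3), 4.10 ± 0.426 at 4 weeks without IMR (SD, n = 2), 5.94 ± 0.741 at 4 weeks with IMR (SD, n = 3), 6.42 ± 0.804 at 8 weeks without IMR (SD, n = 2) and 6.64 ± 2.36 at 8 weeks with IMR (SD, n = 2). Both 4-week libraries without IMR lay below the 3 with IMR, whereas at 8 weeks the libraries without IMR lay between those with it. Arms this small lie apart for many genes: at 4 weeks the CPM of 21.4% of all genes did so for IMR. The share for ratios of 2 genes was not computed.

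On the log2 scale, the ratio differed by -0.20 between 4 weeks (mean 2.35) and pre-MI (mean 2.56), with a two-sided exact permutation p of 0.607 (adjusted p = 0.810). The difference was 0.13 between 8 weeks (mean 2.68) and pre-MI by exact permutation (p = 0.829, adjusted p = 0.829) and 0.33 between 8 and 4 weeks (exact permutation p = 0.175, adjusted p = 0.5). With IMR against without, averaged over the differences within each time, it was 0.27 (exact permutation p = 0.25, adjusted p = 0.5, 60 arrangements). The 4 tests form one family, and the smallest exact permutation p they allow is 0.00794 to 0.0286. This smallest p is higher where 1 library is left out of a compared arm. Over the alternative settings with a test, single libraries left out included, adjusted p-values ran from 0.214 to 1.

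**Figure D4:**
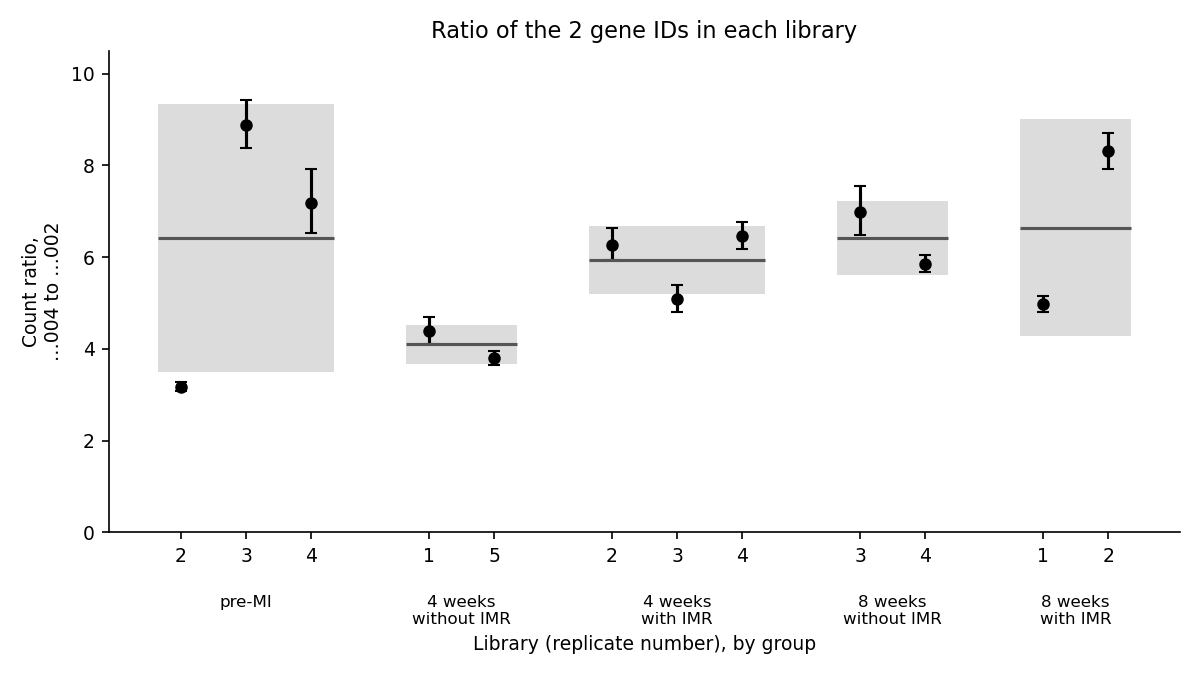
Count ratio of ENSOARG00000000004 to ENSOARG00000000002 in each library (points, with 95% Wilson intervals for counting error), by group, with group means (lines) and SD (grey boxes). Pre-MI replicates 2 and 3, at 3.18 and 8.88, are the lowest and the highest of the 12 libraries.

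Both IDs were high and low together across libraries. Over all 12, the log2 CPM of ENSOARG00000000002 and ENSOARG00000000004 correlated at r = 0.948 (permutation p = 1e-05, the smallest that 100000 permutations can give, adjusted p = 5e-05 over 5 relations) and Spearman's rho was 0.881 (permutation p = 0.00027, adjusted p = 0.00135). Without the 2 libraries farthest from the median r was 0.938, and over the 9 post-MI libraries it was 0.945. Within the 9 libraries whose block share was at or below 2.38% r was 0.927. Both levels come from the same libraries and share their scaling, and r was 0.939 with library totals in place of TMM factors.

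Among the 14803 other genes tested, the gene whose log2 CPM correlated best with ENSOARG00000000002 over the 12 libraries was ENSOARG00000000004, and the reverse held too (r = 0.948 with a prior count of 2). After it came ENSOARG00000005794 for ENSOARG00000000002 (r = 0.941), an ID outside the block with 27 to 77 counts per library. For ENSOARG00000000004 it was ENSOARG00000017347 (r = 0.933), also outside the block, with 17 to 116 counts.

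The rest of the block was less like them. The best of the 13 other tested IDs of the block ranked 71 for ENSOARG00000000002 (r = 0.829) and 19 for ENSOARG00000000004 (r = 0.872), and the lowest values were 0.445 and 0.400. Of the 20 most similar genes, 1 lay in the block for ENSOARG00000000002 and 3 for ENSOARG00000000004, each count including the other of the pair. These correlations are descriptions over 12 libraries that share their scaling.

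Both IDs were higher in libraries where the summed CPM of the other 35 IDs was higher. Over all 12 libraries, as planned, r of the log2 values was 0.790 for ENSOARG00000000002 (permutation p = 0.00195, adjusted p = 0.00325) and rho was 0.629 (permutation p = 0.0317, adjusted p = 0.0528). For ENSOARG00000000004 r was 0.860 (permutation p = 0.00018, adjusted p = 0.00045) and rho was 0.769 (permutation p = 0.00497, adjusted p = 0.0124). Without the 2 libraries farthest from the median of the sum, r was 0.719 and 0.735 (adjusted permutation p = 0.0263 for both), and over the 9 post-MI libraries it was 0.754 (exact permutation, adjusted p = 0.0131) and 0.854 (exact permutation, adjusted p = 0.00251).

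These pooled values span 2 clusters of libraries, the 3 above 5% block share and the other 9, so the relation was also computed within the 9, a choice made after the shares had been seen. There r was 0.511 for ENSOARG00000000002 (exact permutation p = 0.160, adjusted p = 0.200) and rho was 0.267 (exact permutation p = 0.493, adjusted p = 0.613). For ENSOARG00000000004 r was 0.697 (exact permutation p = 0.0363, adjusted p = 0.0606) and rho was 0.45 (exact permutation p = 0.230, adjusted p = 0.383). The 3 libraries above 5% were too few for a value of their own, and held 3 of the 4 highest levels of each ID. The slopes of log2 CPM on the log2 sum were 1.10 and 1.11 in the 9 libraries, against 0.79 and 0.66 in all 12. The log2 ratio of both IDs had r = -0.347 with that sum in all 12 libraries (permutation p = 0.268, adjusted p = 0.268; rho -0.231, permutation p = 0.470, adjusted p = 0.470) and r = 0.0180 in the 9 (exact permutation p = 0.963, adjusted p = 0.963) and rho of 0.2 (exact permutation p = 0.613, adjusted p = 0.613).

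**Figure D5:**
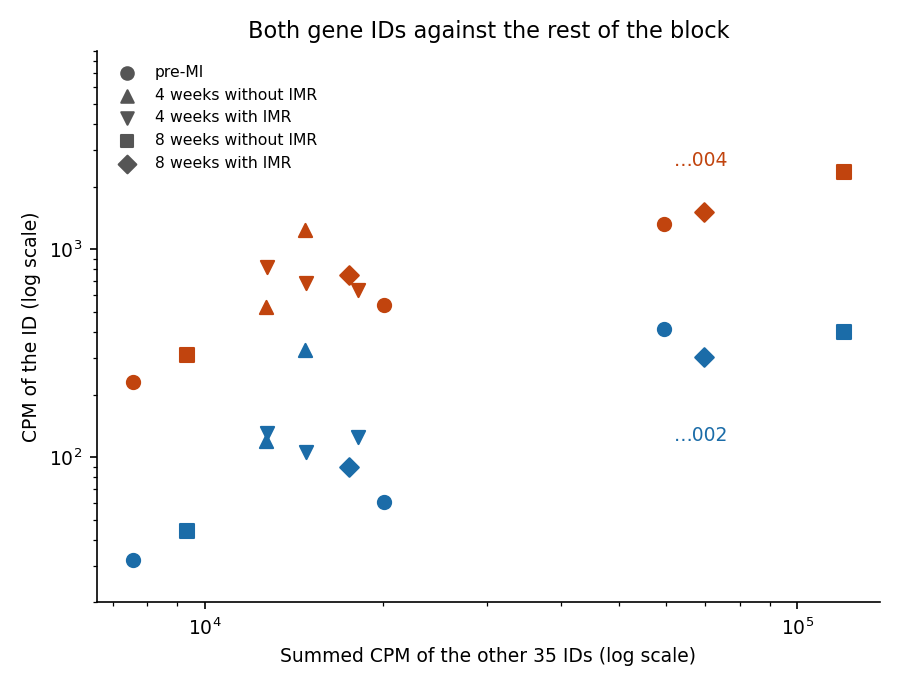
CPM of ENSOARG00000000002 (blue) and ENSOARG00000000004 (red) against the summed CPM of the other 35 IDs of the block, both on log scales, with 1 point per library and ID and the marker shape giving the group. The 3 libraries at the right, with more than 5% of their counts in the block, stand apart from the other 9.

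The log2 ratio of ENSOARG00000000004 to ENSOARG00000000002 was higher in libraries with more counts. Over 12 libraries r with the log2 library total was 0.610 (permutation p = 0.0337, adjusted p = 0.0421) and rho was 0.538 (permutation p = 0.0752, adjusted p = 0.0940). Without the 2 libraries with totals farthest from the median r was 0.376 (permutation p = 0.291, adjusted p = 0.291), with a slope of 0.69 against 0.77 in all 12. Over the 9 post-MI libraries r was 0.886 (exact permutation p = 0.00178, adjusted p = 0.00297) and rho was 0.833 (exact permutation p = 0.00827, adjusted p = 0.0207), and within the 9 libraries with a block share at or below 2.38% r was 0.828 (exact permutation p = 0.00515, adjusted p = 0.0129) and rho was 0.733 (exact permutation p = 0.0311, adjusted p = 0.0778). Without 8 weeks without IMR replicate 4 alone r was 0.614 (adjusted permutation p = 0.0523). The labels give no batch within which to repeat it, and its part in the differences of the ratio was not tested.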

How the data were processed

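The authors deposited raw read counts per Ensembl sheep gene ID, 1 column per library, for mitral leaflet poly-A libraries, keeping IDs without counts. Bowtie2 2.2.3, TopHat2 2.0.12 and HTSeq 0.6.1 are named per the submitters' processing notes. Their settings, the genome build, strandedness and the treatment of reads that map more than once are not given in the sources used here, and such reads could change counts of mitochondrial genes that have nuclear copies.

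Groups came from the labels for time and regurgitation. The series text speaks of animals but no label ties a library to one, so p-values measure only the spread between these libraries. No library pair was a duplicate (chi-square per degree of freedom at least 44.9 over 66 pairs). The 14804 genes left by filterByExpr were fitted with edgeR 4.0.16 in R 4.3.3 (TMM, robust glmQLFit and glmQLFTest, 5 groups, 12 libraries, 7 residual degrees of freedom), with Benjamini-Hochberg adjustment over all genes in each of 7 contrasts. The code was tested on simulated data. Standard errors are the fold change divided by the square root of F. Ratios use counts, and 95% Wilson intervals. Their differences were tested by exact permutation (scipy 1.17.1, numpy 2.4.6). Correlations used 100000 permutations, or all of them under 10 libraries.

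Named genes were both IDs and, for each, the ID with the highest correlation outside the pair. Marker and pathway lists were not used, as 0 IDs had names. The members and lists were chosen with earlier results of these data known. The alternatives comprised DESeq2 1.42.0, voom of limma 3.58.1 with quality weights per sample, other scaling and filters, only the libraries compared, a replicate block and leaving out each library. Figures used matplotlib 3.10.9.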

Additional observations from a re-analysis of the deposited data

Results flagged for a closer look

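ENSOARG00000000002 had 327 CPM in 4 weeks without IMR replicate 5, against 106 to 131 CPM in the other 4 libraries of 4 weeks. Its gap to the nearest library was 0.887 of the range of the 5, above Dixon's critical value of 0.71. The same library had the highest ENSOARG00000000004 of its time point, at 1240.0 CPM, with a gap of 0.586 of the range. Of 10 such checks at 4 and 8 weeks 1 stood out, where chance gives 0.5. The library had the fewest counts, 7768007, and the part of depth in this value was not tested. Without it the log2 fold change of ENSOARG00000000002 for IMR at 4 weeks was 0.010, against -0.89 with all 12 libraries.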

How the results depend on the processing

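Over 21 other settings, 12 that leave out 1 library each and 9 others, 0 of the 294 log2 fold changes of both IDs passed the threshold (lowest adjusted p 0.408) and 48 had the other sign. The cause was not tested for any of these. For ENSOARG00000000002 between 4 weeks and pre-MI the value was 0.018 with DESeq2, 1.54 with voom, 0.018 with RLE size factors, 0.030 with a mean CPM of at least 5 and 0.014 with only the libraries compared. With voom it was -0.064 between 8 and 4 weeks and 0.26 for IMR at 8 weeks, where ENSOARG00000000004 was at 0.25, and ENSOARG00000000004 was at 0.028 for IMR over both times.

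With the number in the labels as a replicate block, ENSOARG00000000004 was at -0.86 between 4 weeks and pre-MI and ENSOARG00000000002 at -0.066 between 8 weeks and pre-MI. For IMR with the replicate block they were at 3.21 (ENSOARG00000000002) and 2.17 (ENSOARG00000000004) at 4 weeks, 0.15 and 0.27 over both times, and -6.12 and -3.80 for the interaction. All of these had the other sign. Blocked values that kept their sign were -2.91 and -1.63 for IMR at 8 weeks, and 1.18 and 1.24 between 8 and 4 weeks. Against pre-MI, ENSOARG00000000002 kept its sign at 4 weeks (-1.25) and ENSOARG00000000004 at 8 weeks (0.38). The number 5 occurs only at 4 weeks without IMR, so in the blocked fit that group rests on its replicate 1 alone. The log2 ratio between 4 weeks and pre-MI was 0.37 with the block. Whether the numbers pair the libraries could not be settled. Over 10 same-numbered pairs the mean correlation of deviations from group means was -0.061 (range -0.50 to 0.47), with 3 above 0.1. In a group of 2 libraries the deviations mirror each other, so the 10 pairs are not independent.

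Leaving out 1 library each gave ranges for ENSOARG00000000002 of -0.53 to 1.83 (4 weeks against pre-MI), -0.82 to 2.17 (8 weeks against pre-MI), -0.84 to 0.79 (8 against 4 weeks), -1.44 to 0.010 (IMR at 4 weeks), -1.30 to 2.09 (IMR at 8 weeks), -1.09 to 0.61 (IMR over both times) and -0.42 to 2.97 (interaction). For ENSOARG00000000004, in the same order, they were -0.22 to 1.05, -0.22 to 1.67, -0.45 to 1.03, -0.80 to 0.44, -1.06 to 1.81, -0.68 to 0.76 and -0.75 to 2.11. The log2 ratio ran from -0.65 to 0.093 between 4 weeks and pre-MI and from -0.32 to 0.42 between 8 weeks and pre-MI, where medians gave -0.17. It stayed above 0 for 8 against 4 weeks (0.21 to 0.45) and for IMR within time (0.08 to 0.46).

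Against the other 35 IDs, the log2 ratio of ENSOARG00000000002 ran from -0.32 to 0.28 for 8 weeks against pre-MI and from -0.61 to 0.0023 for IMR within time. ENSOARG00000000004 ran from -0.12 to 0.25 and from -0.29 to 0.22. The other 4 such differences kept their sign in each fit. Group means of the block share ran from 1.66% to 4.18% pre-MI, 0.957% to 1.88% and 1.42% to 1.73% at 4 weeks without and with IMR, and 0.954% to 11.3% and 2.04% to 7.14% at 8 weeks. The correlation of the log2 ratio with the other 35 IDs was 0.0180 in 9 libraries and -0.347 in all 12. Genes called over the whole table were 0 in all 7 contrasts with edgeR, and 40, 2, 32 and 11 with DESeq2 for 4 weeks and 8 weeks against pre-MI, 8 against 4 weeks and IMR at 4 weeks. The edgeR test called 4 genes for IMR at 4 weeks without 4 weeks without IMR replicate 5, and 1 for 8 against 4 weeks without 4 weeks with IMR replicate 4.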
